A study of Mus musculus with 4 samples.

Results

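Vascular smooth muscle cells of skeletal muscle were taken from the 2 libraries that a satellite cell isolation kit had yielded, as barcodes rich in transcripts of the contractile apparatus. A barcode was kept if it held at least 200 detected genes and at most 20% mitochondrially encoded UMIs. A UMI, or unique molecular identifier, tags each captured RNA molecule so that copies made by PCR are counted once. A kept barcode was a smooth muscle member if Myh11, Pln, Cnn1 and Lmod1 together had at least 10 UMIs, Pax7, Myod1 and Myog together at most 2, and Pdgfra 0. This gave 456 members of 3318 kept barcodes, 313 of 1907 with LNP-CRISPR and 143 of 1411 with vehicle, out of 6512 deposited barcodes in the series. LNP-CRISPR stands for lipid nanoparticles that deliver a CRISPR gene-cutting system, whose enzyme is Cas9, and the series title asks how they distribute over the cells of skeletal muscle. The 4 libraries were LNP-CRISPR kit, vehicle kit, LNP-CRISPR bulk and vehicle bulk, 1 per group, all from a mouse model of Duchenne muscular dystrophy (DMD), so that the vehicle mice carry the disease model too. Bulk cells were sequenced without the kit. The strain, allele, age, dose, time after dosing, guide and number of animals are not given in the sources used here. The labels call the kit cells satellite cells, the stem cells of muscle, a name that does not cover these members.

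With 1 library per group no difference between LNP-CRISPR and vehicle had a replicate check, no test was made, and treatment cannot be told apart from animal or preparation. Brackets hold exact 95% intervals that cover counting error only, and cells of 1 library are not replicates. Levels are summed UMIs per 1000000 nuclear-encoded UMIs (CPM), and ratios are LNP-CRISPR over vehicle.

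Smooth muscle cells wrap arteries, arterioles and veins and set vessel width. Calcium entering the cell binds calmodulin, myosin light chain kinase then phosphorylates the light chains, and smooth muscle myosin pulls on alpha-actin. Nitric oxide, acting through cyclic GMP, favours the phosphatase that undoes this step. The contractile genes are switched on by serum response factor with its partner myocardin, which bind the CArG box. Injured smooth muscle can lower these genes and raise matrix genes, and can answer cytokines or microbial products through NF-kB, a transcription factor held back by the inhibitor that Nfkbia encodes.

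These promoters are shown because the contractile genes and the NF-kB targets are the contrast on which the comparison turns. They were taken from RefSeq (GRCm38.p6) as 250 bases before to 50 after the gene start, in the direction of the gene. Capitals mark the NF-kB consensus in the first 4 and the CArG box in the last, both searched by name on both strands. In Cxcl1 and Cxcl2 the capitals are a pair of matches that overlap, 1 per strand.
Cxcl1 promoter, chr5:90890995-90891294, plus strand: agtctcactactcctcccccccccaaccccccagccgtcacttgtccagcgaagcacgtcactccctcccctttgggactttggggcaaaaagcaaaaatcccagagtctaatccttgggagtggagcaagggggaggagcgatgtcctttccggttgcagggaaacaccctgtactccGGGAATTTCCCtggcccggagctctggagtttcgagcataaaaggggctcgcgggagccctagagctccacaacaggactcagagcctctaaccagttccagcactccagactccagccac
Cxcl2 promoter, chr5:90903649-90903948, plus strand: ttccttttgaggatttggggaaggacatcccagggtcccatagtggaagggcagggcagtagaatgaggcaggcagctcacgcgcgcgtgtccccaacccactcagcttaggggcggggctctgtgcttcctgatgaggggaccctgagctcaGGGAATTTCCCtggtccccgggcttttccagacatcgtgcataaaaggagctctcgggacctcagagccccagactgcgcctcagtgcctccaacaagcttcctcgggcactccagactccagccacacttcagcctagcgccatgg
Il6 promoter, chr5:30012864-30013163, plus strand: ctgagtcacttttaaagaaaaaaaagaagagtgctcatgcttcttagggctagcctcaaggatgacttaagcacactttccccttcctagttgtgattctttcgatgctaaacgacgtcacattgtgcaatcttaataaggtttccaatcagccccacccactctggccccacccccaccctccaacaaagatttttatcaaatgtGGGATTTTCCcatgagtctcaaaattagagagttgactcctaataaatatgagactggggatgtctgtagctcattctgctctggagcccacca
Nfkbia promoter, chr12:55492598-55492897, minus strand: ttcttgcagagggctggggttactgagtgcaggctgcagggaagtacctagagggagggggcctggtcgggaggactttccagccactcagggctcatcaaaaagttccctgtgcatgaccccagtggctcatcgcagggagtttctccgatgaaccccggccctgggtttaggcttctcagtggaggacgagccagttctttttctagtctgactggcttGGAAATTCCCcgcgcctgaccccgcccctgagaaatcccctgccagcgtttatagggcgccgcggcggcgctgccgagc
Myl9 promoter, chr2:156775214-156775513, plus strand: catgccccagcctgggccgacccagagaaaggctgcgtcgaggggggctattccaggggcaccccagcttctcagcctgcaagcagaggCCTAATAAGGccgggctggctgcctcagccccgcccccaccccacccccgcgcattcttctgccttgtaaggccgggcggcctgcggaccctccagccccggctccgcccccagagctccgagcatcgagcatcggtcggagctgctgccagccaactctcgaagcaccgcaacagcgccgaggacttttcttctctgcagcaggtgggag

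The first match began at position -71 in Cxcl1, -97 in Cxcl2, -44 in Il6 and -29 in Nfkbia, where 0 is the start of the gene, and the CArG box of Myl9, a myosin light chain gene, began at -161. The Myl9 promoter also holds an NF-kB consensus match, which is not in capitals. Of all 32851 RefSeq promoters, 8.46% held the NF-kB consensus and 1.63% the CArG box. These shares are per promoter. The list counts that follow are per gene, where a match in any promoter of the gene sufficed, so the measures are unlike. The consensus was found in 18 of the 33 genes of the NF-kB and acute inflammation list that the table covers, among them 9 of the 12 covered genes that were higher with LNP-CRISPR. The CArG box was found in 6 of 29 covered contractile genes (Fhl1, Filip1l, Ldb3, Myl6, Myl9 and Vcl), and the NF-kB consensus in 8 of these 29. A match is a description of these letters and not a bound site.

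The 4 genes that chose the members were Myh11 (smooth muscle myosin heavy chain), Pln (phospholamban, a brake on the calcium pump), Cnn1 (calponin) and Lmod1 (leiomodin, which starts actin filaments). Their values are description only. Myh11 had 7238 CPM with LNP-CRISPR and 7552 CPM with vehicle, Pln 363 and 503, Cnn1 406 and 456, and Lmod1 444 and 550. The sum of the 4 genes ranged from 10 to 579 UMIs per LNP-CRISPR member with a median of 139, and from 10 to 546 per vehicle member with a median of 134. Few barcodes lay near the limit of 10. Sums of 10 to 12 were found in 5 LNP-CRISPR and 1 vehicle members, and sums of 7 to 9 in 9 and 3 kept barcodes. The limit on Pax7, Myod1 and Myog removed 5 and 6 barcodes that had passed the first condition, and the limit on Pdgfra removed none in either library.

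The label was checked on genes that the rule did not name, as description, since the members were picked by measured values. Acta2, smooth muscle alpha-actin, had 14251 CPM in LNP-CRISPR members against 474 CPM in the other kept barcodes of that library, and 14455 against 514 CPM with vehicle. Mylk, myosin light chain kinase, was 190 and 172 times the level of the other barcodes with LNP-CRISPR and with vehicle. Myocd, which encodes myocardin, was 156 and 197 times that level, and Notch3, a receptor of mural cells, 20.3 and 18.7 times. Olfr558, an olfactory receptor gene, was 385 and 314 times that level. Kcnj8 and Abcc9, channel genes that mark pericytes (the mural cells of capillaries), had a UMI in only 4.15% and 2.88% of LNP-CRISPR members, and each in 6 of 143 vehicle members. The members therefore carried the smooth muscle markers in both libraries, with these 2 pericyte channel genes near 0. Of 23 mural genes shared with pericytes, 18 had at least 50 UMIs. Among them were Cspg4 (427 CPM with LNP-CRISPR and 411 CPM with vehicle), Ndufa4l2 (391 and 473 CPM) and Pdgfrb (183 and 201 CPM). Vtn (1.24 and 4.61 CPM) and Anpep (2.47 and 4.61 CPM) were low like the channel genes. Barcodes with mural genes but little contractile RNA numbered only 7 and 10, and their leading genes over the members included satellite cell genes such as Vcam1. In the vehicle kit they also held mural genes that had not chosen them, such as Vtn at 97.3 CPM (13 UMIs) against 4.61 CPM in members. Being few and mixed, these barcodes served no comparison.

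Members were 16.4% (14.8–18.2) of kept barcodes in the LNP-CRISPR kit and 10.1% (8.61–11.8) in the vehicle kit, a ratio of 1.62 (1.32–1.99). The kit is a cell isolation step that can set this share, and the ratio was 2.14 when barcodes over 10% mitochondrial UMIs were left out (13.8% against 6.45%). The same rule found 24 of 1152 barcodes (2.08%) in LNP-CRISPR bulk and 23 of 1204 (1.91%) in vehicle bulk. Members had a median of 19893 UMIs and 3831 genes with LNP-CRISPR against 18034 UMIs and 3711 genes with vehicle, and median mitochondrial shares of 8.54% and 9.46%. They summed to 5661049 and 2385641 nuclear-encoded UMIs. The 2 kit libraries shared 1 barcode sequence, and no member was shared.

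The contractile apparatus outside the rule was nearly level between the libraries. The 33 measured genes of this list, which build and regulate the actin and myosin filaments, summed to 69938 CPM with LNP-CRISPR and 70077 CPM with vehicle. None was at least 1.5-fold higher and 1 was lower by that margin. Over all 8335 genes with at least 50 UMIs in the members, 355 (4.26%) were at least 1.5-fold higher and 529 (6.35%) at least 1.5-fold lower. The median log2 ratio was -0.06 both for the contractile list and for all genes. That counts 24 of 33 contractile genes under a ratio of 1, against 4731 of 8335 genes.

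Among the most abundant contractile genes, Acta2 (chromosome 19, 34241090 to 34255590, GRCm38) had a ratio of 0.986 (0.974–0.998). Its level per member had a median of 118 UMIs per 10000 with LNP-CRISPR and 120 with vehicle, in ranges of 4.86 to 406 and 30.1 to 275, so the groups overlapped almost entirely. Tagln, the actin-binding protein transgelin, had 9269 CPM with LNP-CRISPR and 8888 CPM with vehicle, a ratio of 1.04 (1.03–1.06). Tropomyosins Tpm1 and Tpm2 lie along the actin filament. Tpm1 had 6132 CPM with LNP-CRISPR and 5029 CPM with vehicle, a ratio of 1.22 (1.19–1.24), or 1.28 in the bulk members. Tpm2 had 6330 and 6457 CPM, a ratio of 0.980. The myosin light chains Myl6 and Myl9 had ratios of 0.955 and 0.976. Mylk, the kinase that switches contraction on, stood at 0.940, caldesmon (Cald1) at 1.06 and filamin A (Flna) at 0.950. The gene past the margin was Actg2, gamma-actin of smooth muscle, with 17.8 CPM with LNP-CRISPR and 37.3 CPM with vehicle and a ratio of 0.478 (0.356–0.643). A part of its few UMIs was held unevenly. Among members with at least 10 Rgs5 UMIs, a single vehicle member held all 17 and a single LNP-CRISPR member all 4. Members without an Rgs5 UMI held 65 with LNP-CRISPR and 20 with vehicle, so this unevenness covers only some of the counts behind the ratio. Genes of the Z-disc and dense body such as Ldb3 (0.677) and Pdlim3 (0.716) were next in order and inside the margin.

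**Figure D1:**
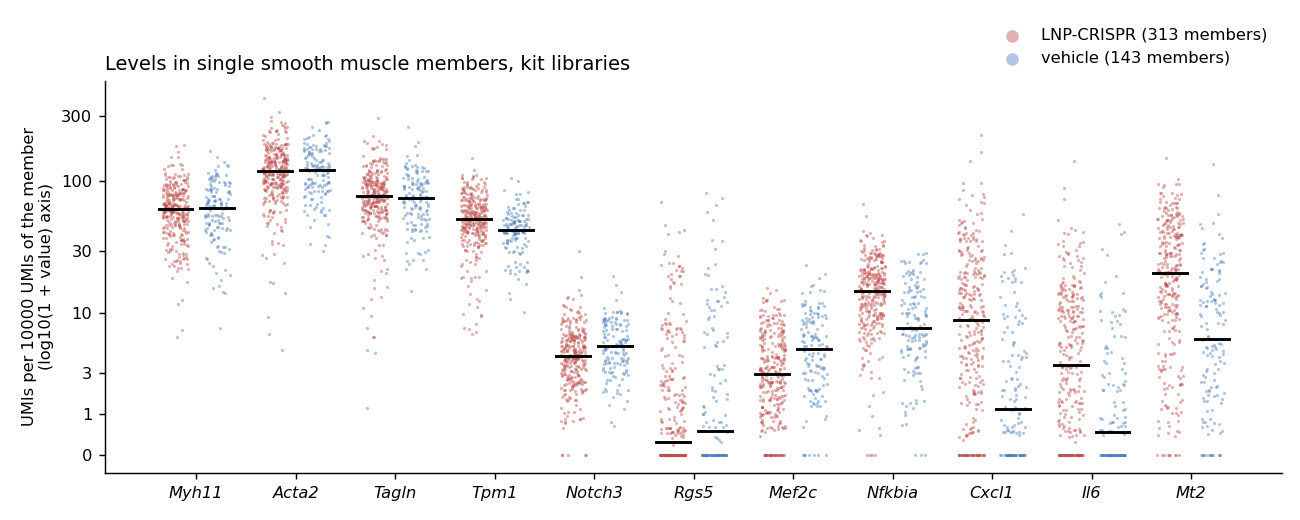
Levels in single smooth muscle members of the kit libraries, as UMIs per 10000 UMIs of the member on a log10(1 + value) axis. Each dot is 1 member, LNP-CRISPR (313) left of vehicle (143) for each gene, and the bar is the median. Acta2 medians are 118 and 120, whereas Cxcl1 medians are 8.78 and 1.18.

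Genes of calcium handling and of the relaxing arm lay slightly below all genes in their median. Of 20 measured calcium-handling and ion channel genes none was higher and 1 lower, with a median log2 ratio of -0.21. The lower one was Kcna5, a voltage-gated potassium channel, with 42.2 CPM with LNP-CRISPR and 75.5 CPM with vehicle (ratio 0.560, 0.459–0.683). Atp2a2, the calcium pump that phospholamban restrains, had 1199 CPM with LNP-CRISPR and 1426 CPM with vehicle (0.841). Casq2, which stores calcium, had 208 and 279 CPM (0.746). The calcium channel gene Cacna1c had a ratio of 0.965 and the potassium channel gene Kcnma1 a ratio of 0.991. Of 15 genes of the nitric oxide, cyclic GMP and phosphatase arm, 1 was lower, Rgs5, and the median was -0.16. The nitric oxide receptor subunits Gucy1a1 and Gucy1b1 had ratios of 0.720 (0.671–0.773) and 0.786 (0.716–0.862). Rock2, a kinase that restrains the phosphatase, had a ratio of 1.28 (1.21–1.36) in the kit and 0.746 in bulk, so the direction was not shared.

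Of 13 measured receptors for vasoactive signals 1 was higher and 2 were lower. Ptgir, the prostacyclin receptor, had 64.7 CPM with LNP-CRISPR and 23.1 CPM with vehicle, a ratio of 2.80 (2.11–3.79), and 1.33 in bulk. Olfr558 had 297 CPM with LNP-CRISPR and 464 CPM with vehicle, a ratio of 0.641 (0.594–0.692), and 0.621 in bulk. Adra1a, an alpha-1 adrenergic receptor through which noradrenaline constricts vessels, had 44.3 and 67.1 CPM (0.661, 0.540–0.811). Receptors for endothelin (Ednra, 1.11), sphingosine 1-phosphate (S1pr3, 1.11) and vasopressin (Avpr1a, 1.08) were near level. Agtr1a, the angiotensin receptor, was below 50 UMIs and not measured.

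Of 22 measured regulators of the contractile state none was higher and 2 were lower, Mef2c and Ebf2, with a median of -0.11. Mef2c, a transcription factor that acts upstream of myocardin in muscle lineages, had 416 CPM with LNP-CRISPR and 642 CPM with vehicle, a ratio of 0.648 (0.607–0.691). Its per-member median was 2.92 UMIs per 10000 with LNP-CRISPR and 5.02 with vehicle, in overlapping ranges of 0 to 15.8 and 0 to 23.5. In bulk its ratio was 0.831. Myocd and Srf themselves had ratios of 0.861 (0.756–0.982) and 0.870 (0.639–1.19), the second an interval that includes 1. Klf4, which opposes myocardin in modulated cells, had 446 CPM with LNP-CRISPR and 542 CPM with vehicle (0.824). The Notch list, whose Notch3 arm maintains arterial smooth muscle, held 12 measured genes with 1 lower (Hey2, 0.662) and a median of -0.19. Notch3 had 503 CPM with LNP-CRISPR and 627 CPM with vehicle (0.803, 0.754–0.856) in the kit, and a ratio of 1.12 in bulk.

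Genes of modulated, matrix-making smooth muscle were not shifted as a list. Of 22 measured, 3 were higher, Spp1 and Mgp among them, 2 were lower (S100a4 and Vcam1), and the median was 0.08. Thbs1, the matrix glycoprotein thrombospondin 1, was the most abundant gene to lean upward, with 3263 CPM with LNP-CRISPR and 2360 CPM with vehicle (1.38, 1.34–1.42), inside the margin. Spp1, osteopontin, was 5.58-fold higher (3.18–10.7), but 1.56-fold higher once members marked by another cell type were left out. Col1a1 (1.13), Col3a1 (1.11) and Fn1 (1.10) were near level. Of 25 basement membrane, elastic fibre and integrin genes 3 were higher (Itga5, Itgb3 and Npnt) and none was lower. The clearest of these was Itga5, the fibronectin receptor subunit, with 175 CPM with LNP-CRISPR and 81.3 CPM with vehicle (2.15, 1.84–2.52), against 0.743 in bulk. Pdgfa, a growth factor for mesenchymal cells, had 1104 CPM with LNP-CRISPR and 773 CPM with vehicle (1.43, 1.36–1.51).

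The NF-kB and acute inflammation list stood out in size. Of 30 measured genes 14 were at least 1.5-fold higher with LNP-CRISPR and 2 lower, against 4.26% and 6.35% of all genes. Its median log2 ratio was 0.50 against -0.06 for all genes, and it summed to 10980 CPM with LNP-CRISPR and 7774 CPM with vehicle. Without members marked by another cell type, without Scrublet doublets, and with every member weighted the same, the median stayed above 0. The list is not particular to smooth muscle, since other barcodes of the same libraries shared its direction.

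Secreted factors held the 4 highest ratios of the list (Lif, Cxcl2, Ccl2 and Cxcl1). Cxcl1, a chemokine that draws neutrophils, had 1778 CPM with LNP-CRISPR and 602 CPM with vehicle, a ratio of 2.95 (2.80–3.12). Its per-member level ran from 0 to 217 UMIs per 10000 with a median of 8.78 with LNP-CRISPR, and from 0 to 56.6 with a median of 1.18 with vehicle. The distributions overlapped, with the highest LNP-CRISPR members above all vehicle members. After thinning to 5000 UMIs, 77.5% of LNP-CRISPR and 52.9% of vehicle members held a Cxcl1 UMI (87.5% and 67.1% before thinning). Glial-marked barcodes thinned alike held it in 15.1% and 3.57% (24.5% and 6.15% before). Their depth was lower before thinning (medians of 8012 and 6694 UMIs). Barcodes under 5000 UMIs were left out, 97 and 92 glial-marked ones against 6 and 3 members. Cxcl2, its neighbour on chromosome 5 and also a neutrophil attractant, had 182 CPM with LNP-CRISPR and 13.4 CPM with vehicle, a ratio of 13.6 (9.57–19.98). It was carried by 100 of 313 and 13 of 143 members, and without the highest member of each library the ratio was 21.0.

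Il6, the cytokine interleukin 6, had 860 CPM with LNP-CRISPR and 391 CPM with vehicle, a ratio of 2.20 (2.05–2.36). Its per-member median was 3.55 UMIs per 10000 with LNP-CRISPR and 0.475 with vehicle, in ranges of 0 to 141 and 0 to 48.0. Il6 was also a gene of these members among kit cells, at 63.0 and 115 times the level of the other kept barcodes with LNP-CRISPR and with vehicle. In bulk its ratio was 0.988 (0.818–1.19). Ccl2, which draws monocytes, had 32.5 CPM with LNP-CRISPR and 9.22 CPM with vehicle (3.52, 2.26–5.76), and 6.32 without the highest member of each library. Lif, a cytokine of the interleukin 6 family, had a ratio of 14.9 (4.96–73.4) on 106 and 3 UMIs.

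Inhibitors and subunits of the pathway were higher too, by smaller ratios than Cxcl1, Cxcl2, Ccl2 and Lif. Nfkbia had 1790 CPM with LNP-CRISPR and 1083 CPM with vehicle, a ratio of 1.65 (1.58–1.73), and per-member medians of 14.9 and 7.46 UMIs per 10000. Tnfaip3, which encodes the inhibitor A20, had 172 CPM with LNP-CRISPR and 67.9 CPM with vehicle (2.53, 2.14–3.005). The subunit genes Nfkb1 and Rela had ratios of 1.76 (1.58–1.97) and 1.52 (1.27–1.82). Sod2, a mitochondrial superoxide dismutase and a known target, had 586 CPM with LNP-CRISPR and 330 CPM with vehicle (1.78). The lower genes were Cebpd, a transcription factor of the acute phase (0.608, 0.566–0.653), and Vcam1, an adhesion molecule (0.612, 0.379–0.99995), which turned to 1.38 without its highest member in each library. Cxcl10, a chemokine that interferon drives, had 14.1 CPM with LNP-CRISPR and 14.7 CPM with vehicle, a ratio of 0.963 (0.640–1.48). The interferon list held 1 higher (Gbp2) and 3 lower (Ifih1, Bst2 and Irgm1) of 19 measured genes and a median of 0.07.

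**Figure D2:**
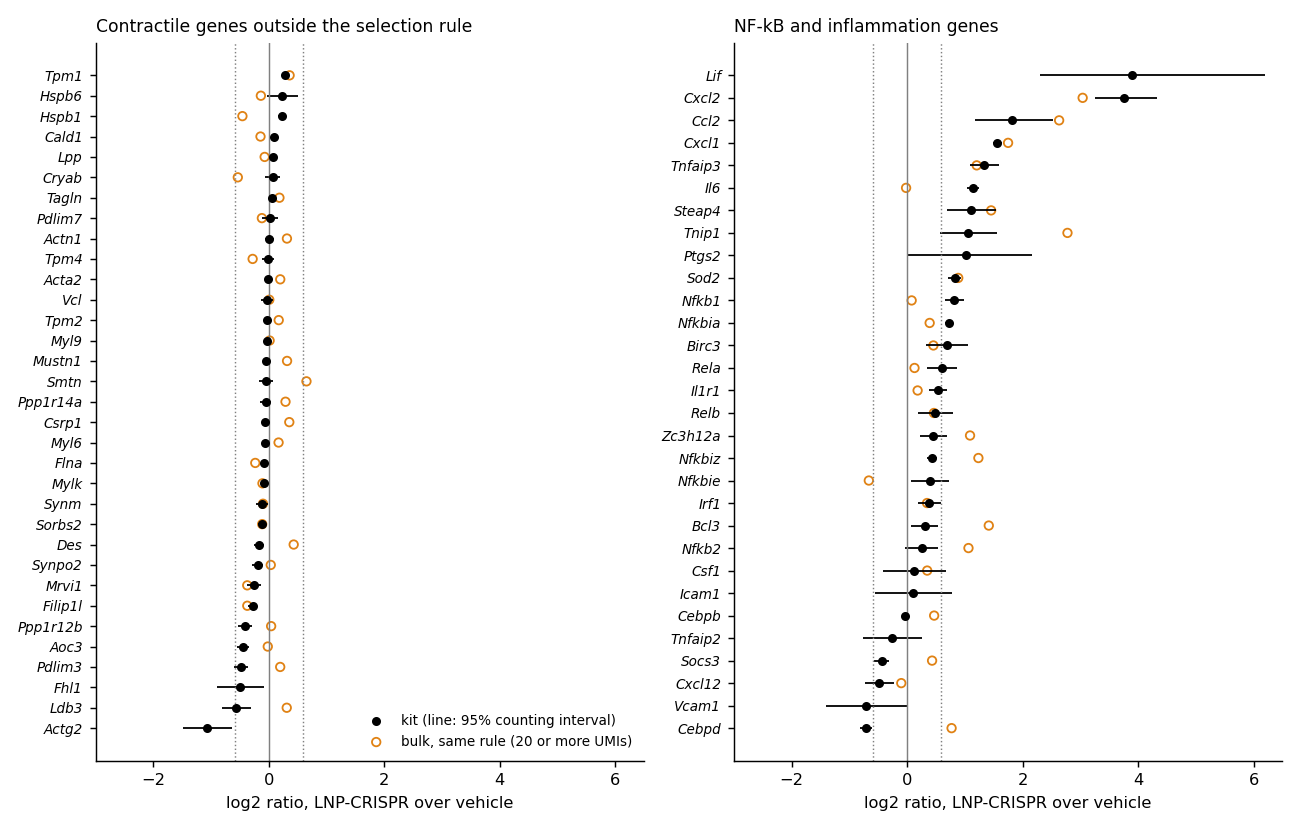
Log2 ratios of LNP-CRISPR over vehicle in the smooth muscle members, with contractile genes outside the rule on the left and NF-kB and inflammation genes on the right. Filled points are kit members with exact 95% counting intervals, open circles are the same rule in bulk where a gene had at least 20 UMIs, and dotted lines mark a 1.5-fold ratio. The contractile genes cluster at 0 (median -0.06), and the inflammation genes lie mostly to the right (median 0.50).

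The same direction was found in the 24 LNP-CRISPR and 23 vehicle bulk members, few as they were. Of 25 list genes with at least 20 UMIs there, 12 were higher and 1 was lower (Nfkbie), where 11.6% and 12.3% of 4773 genes were higher and lower. The median was 0.47. Cxcl1 had 1151 CPM in LNP-CRISPR bulk and 342 CPM in vehicle bulk (3.36), Cxcl2 had a ratio of 8.23, and Nfkbia one of 1.31. Kit cells of other kinds also shared it. In kit barcodes marked by glial genes (428 and 260) Cxcl1 was 6.31-fold higher with LNP-CRISPR, Nfkbia 2.03-fold and Ccl2 15.1-fold, while Sod2 had a ratio of 0.838 (0.725–0.971). There 24 of 26 measured genes of the list were over 1, against 49.7% of all genes measured. In myogenic kit barcodes (408 and 318) Cxcl1 was 2.39-fold, Cxcl2 5.70-fold and Nfkbia 1.996-fold higher, with 28 of 33 measured genes of the list over 1, against 47.0% of all genes measured. These groups come from the same pair of libraries.

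Other stress lists were near level in their medians. Of 20 heat shock chaperone genes, 16 unfolded protein response genes and 29 nuclear genes of oxidative phosphorylation none passed the margin in either direction. Hspa1a, an inducible chaperone, had a ratio of 0.964. Of 27 immediate early genes, which respond within minutes and also to cell dissociation, 3 were higher (Egr3, Ier3 and Fosl1), 2 were lower (Klf2 and Egr2) and the median was -0.11. Fos had 992 CPM with LNP-CRISPR and 1081 CPM with vehicle (0.918), and Jund had 1572 and 2271 CPM (0.692). Of 26 targets of p53, which DNA breaks switch on, 4 were higher (Mdm2, Plk2, Tnfrsf10b and Rrm2b), none was lower, and the median was 0.03. The shares higher and lower were 15.4% and 0% of the p53 list and 11.1% and 7.41% of the immediate early list. Over all genes they were 4.26% and 6.35%. Cdkn1a, the cell cycle inhibitor p21, had 827 CPM with LNP-CRISPR and 581 CPM with vehicle (1.42, 1.34–1.51), inside the margin. Of 18 cholesterol genes 1 was higher (Fdft1) and 1 lower (Abca1).

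Metallothionein genes, whose products bind zinc and copper, are given although they were chosen after their values were seen. Mt2 had 3028 CPM with LNP-CRISPR and 1332 CPM with vehicle, a ratio of 2.27 (2.19–2.36), and 2.18 in bulk. Mt1 had 10996 CPM with LNP-CRISPR and 6598 CPM with vehicle, a ratio of 1.67 (1.64–1.70), and 1.29 in bulk. In the glial-marked and myogenic kit barcodes Mt2 had ratios of 1.44 and 1.13, and Mt1 of 1.12 and 1.07.

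The genes with the lowest ratios by interval bound were of mixed function. Otud1, a deubiquitinase, had 34.1 CPM with LNP-CRISPR and 142 CPM with vehicle (0.241, 0.201–0.288), and 0.280 in bulk. Abt1 (0.327), Dmp1 (0.393), Klhl21 (0.494) and Tppp3 (0.498) were also among them, of which only Dmp1 lay below the 1.5-fold margin in bulk too. Ifi27l2a had a ratio of 0.144, but only 11 LNP-CRISPR and 4 vehicle members held it, and without its highest members the ratio was 0.285. Among the highest, Itpkc, an inositol phosphate kinase, had 144 CPM with LNP-CRISPR and 42.3 CPM with vehicle (3.41, 2.77–4.23), and 1.19 in bulk. Slc15a2, a peptide transporter, had 41.9 and 10.5 CPM (3.995, 2.64–6.30), and 3.43 in bulk.

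Dystrophin is also made in vascular smooth muscle. Dmd transcripts of the members had 192.0 CPM with LNP-CRISPR and 191.6 CPM with vehicle, a ratio of 1.002 (0.898–1.12). A 3' count does not show whether an exon was cut out. Utrn, which encodes the related utrophin, had 408 CPM with LNP-CRISPR and 450 CPM with vehicle (0.907). Of 17 genes of the dystrophin complex and its caveolar partners none was higher and 2 were lower, Sgce and Dtnb, with a median of -0.29.

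Markers of other cells moved with the libraries, and their part in the results was not tested. All 6 measured glial markers were higher with LNP-CRISPR, and the glial list summed to 659 CPM with LNP-CRISPR and 198 CPM with vehicle. Glial-marked members numbered 10 with LNP-CRISPR and 3 with vehicle. Without all members marked by another cell type (12 and 4) the ratio of Cxcl1 was 2.97. Skeletal fibre markers went the other way, with 9 of 12 measured genes lower and a median of -0.82. Mylpf, a fast fibre light chain, had a UMI in 91.7% of LNP-CRISPR and 98.6% of vehicle members, and in 93.0% and 99.2% of glial-marked barcodes. Its UMIs per member had medians of 3 and 4 and reached 94 and 124. Markers of satellite cells and myoblasts summed to 1001 CPM with LNP-CRISPR and 703 CPM with vehicle, with Myog, a gene of the rule, higher and Vcam1 lower of 3 measured. Vcam1 held only 45 and 31 of their 5665 and 1677 UMIs, and the rule allowed at most 2 Myog UMIs per member. Most of the sum thus lay in the remaining measured gene and is not a signal of the list as a whole. Tenocyte markers summed to 198 and 147 CPM, with Thbs4 higher of 4 measured. Endothelial markers summed to 111 and 120 CPM and macrophage markers to 24.9 and 36.0 CPM.

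**Figure D3:**
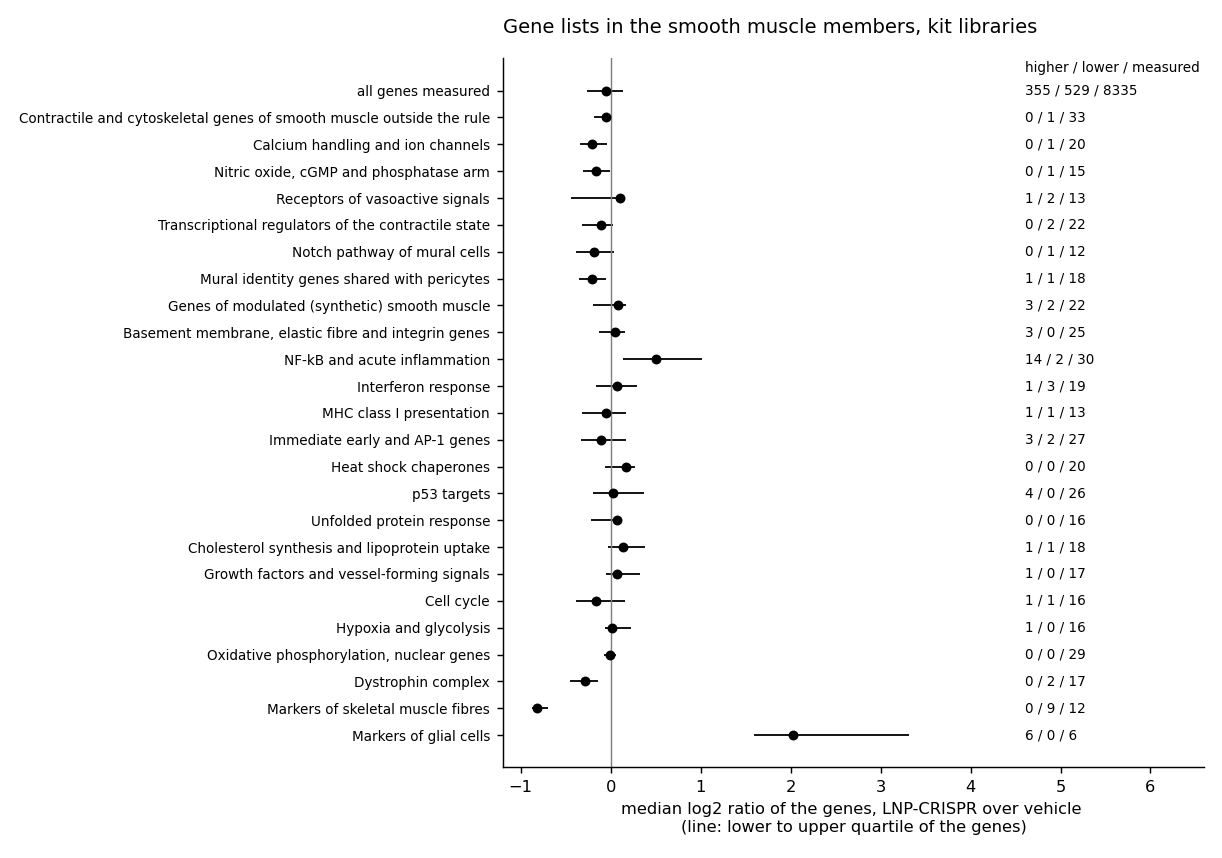
Median log2 ratio of LNP-CRISPR over vehicle for each gene list in the kit members, with a line from the lower to the upper quartile of its measured genes and, at the right, the counts at least 1.5-fold higher, at least 1.5-fold lower and measured. The NF-kB list (median 0.50) and the glial markers (2.03) lie to the right, the fibre markers (-0.82) to the left, and the contractile genes (-0.06) with all genes.

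Smooth muscle members differed widely among themselves in Rgs5. Rgs5 shortens signals from G protein-coupled receptors and is known for pericytes and small arterioles. It had 365 CPM with LNP-CRISPR and 640 CPM with vehicle, a ratio of 0.570 (0.533–0.609), and 0.475 (0.393–0.571) in bulk. Its UMIs ran from 0 to 195 with a median of 1 in LNP-CRISPR members, and from 0 to 180 with a median of 1 in vehicle members. After thinning to 5000 UMIs, 37.5% of LNP-CRISPR and 42.1% of vehicle members held it (50.5% and 53.8% before), against 1.51% and 0.595% of glial-marked barcodes. At least 10 UMIs were found in 56 of 313 LNP-CRISPR members (17.9%, 13.8–22.6) and 35 of 143 vehicle members (24.5%, 17.7–32.4). No UMI was found in 155 and 66. The share of such Rgs5-high members was lower with LNP-CRISPR, with intervals that overlap. Within them the level was 1844 CPM with LNP-CRISPR and 2401 CPM with vehicle, as description only, since Rgs5 itself made the group. The richest 10 members held 37.6% of all Rgs5 UMIs with LNP-CRISPR and 58.8% with vehicle.

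Rgs5-high members were set against Rgs5-free members within each library, as description, since a measured gene made the split. Median depths were 18574 and 20528 UMIs with LNP-CRISPR, and 17532 and 18634.5 UMIs with vehicle. Of 4263 genes measured in both libraries 129 (3.03%) were at least 1.5-fold higher in Rgs5-high members in both and 88 (2.06%) lower in both. Ednrb, the endothelin B receptor, had 673 CPM in Rgs5-high and 162 CPM in Rgs5-free LNP-CRISPR members, and 608 and 84.8 CPM in vehicle members. Fabp4, a fatty acid carrier, was 3.56-fold higher with LNP-CRISPR and 4.65-fold with vehicle, and the fatty acid receptor gene Cd36 13.6-fold and 7.26-fold. Bdnf, a neurotrophin, was 4.17-fold and 4.28-fold higher, and Nrp1, a co-receptor of vascular growth factors, 4.88-fold and 4.89-fold. Of 20 measured calcium and channel genes 3 were higher in both libraries, namely Casq2 (1.81-fold and 3.02-fold), the chloride channel gene Ano1 (1.98-fold and 2.33-fold) and the exchanger gene Slc8a1 (1.51-fold and 1.69-fold), and 1 was lower (Ryr2). The Notch target Hes1 was 1.80-fold and 2.44-fold higher. Cd36 and Fabp4 are also endothelial genes, as is Cd93, which was 2.86-fold and 4.57-fold higher. Of other endothelial markers the Rgs5-high members held at most 1 UMI of Pecam1 and of Cldn5 and 0 of Cdh5, Kdr, Emcn and Tek in each library. Flt1 had 1 UMI in each library, and Egfl7 had 2 with LNP-CRISPR and 0 with vehicle. Esam, an endothelial adhesion gene, had 91 and 72 UMIs there, at ratios of 0.919 and 1.13 over Rgs5-free members. Kcnj8 and Abcc9 had 1 UMI each in the Rgs5-high members of each library.

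Eln, which encodes the elastin of the arterial wall, was the mirror image. It had 64.0 CPM in Rgs5-high and 399 CPM in Rgs5-free LNP-CRISPR members, and 63.9 and 401 CPM in vehicle members. Dpysl3 (0.0828 and 0.105), Clu (0.316 and 0.0619), the growth factor binder Igfbp4 (0.385 and 0.317), the cross-linking enzyme gene Tgm2 (0.389 and 0.354) and the calcium release channel gene Ryr2 (0.386 and 0.148) were lower in Rgs5-high members too. Of 31 measured contractile genes outside the rule 0 were higher and 5 lower in both libraries, namely Ppp1r14a, Hspb6, Sorbs2, Smtn and Pdlim7. Acta2 stood at 0.706 and 0.749 and Tagln at 0.740 and 0.697, inside the margin. Of 20 genes of the NF-kB list 1 was higher (Cxcl12) and 0 lower in both, and Cxcl1 had ratios of 0.757 and 0.839.

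**Figure D4:**
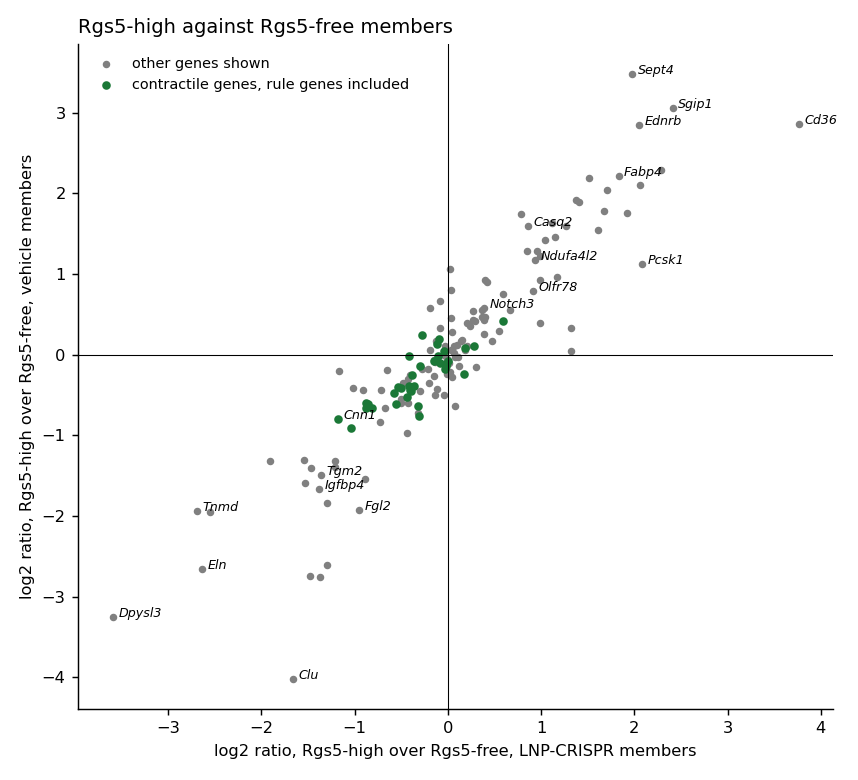
Log2 ratio of Rgs5-high over Rgs5-free smooth muscle members, in the LNP-CRISPR kit (horizontal) and in the vehicle kit (vertical), for list genes and leading genes, each dot 1 gene. Ednrb, Fabp4 and Cd36 lie at the upper right, and Eln, Dpysl3 and Clu at the lower left in both libraries. The contractile genes in green lie on both sides of 0, for example Des above it (ratios of 1.21 and 1.08). None of them was at least 1.5-fold higher in both libraries.

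Members were also ordered by the share of their UMIs in the contractile genes outside the rule and divided into low, middle and high bins of equal number within each library (105, 104 and 104 with LNP-CRISPR, and 48, 48 and 47 with vehicle). The median share was 4.73%, 6.23% and 7.84% with LNP-CRISPR and 4.45%, 6.17% and 7.69% with vehicle. Single members ran from 1.06% to 14.1% with LNP-CRISPR and from 2.005% to 11.2% with vehicle. A share of the same UMIs made the bins, and depth moved with it, with medians of 16476, 19037 and 21654.5 UMIs with LNP-CRISPR and 15217, 18685 and 19972 UMIs with vehicle. Rgs5 was 726, 292 and 150 CPM from the low to the high bin with LNP-CRISPR and 1180, 571 and 262 CPM with vehicle. Eln went the other way, at 144, 217 and 478 CPM with LNP-CRISPR and 146, 219 and 426 CPM with vehicle. Myocd was nearly flat, at 123, 123 and 129 CPM with LNP-CRISPR and 137, 143 and 155 CPM with vehicle.

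The inflammatory genes were lowest in the high bin in both libraries. Cxcl1 was 2645, 1785 and 1101 CPM with LNP-CRISPR from low to high, and 650, 695 and 475 CPM with vehicle. Il6 was 1301, 823 and 550 CPM with LNP-CRISPR and 464, 405 and 317 CPM with vehicle. Within every bin both genes were higher with LNP-CRISPR than with vehicle. The whole NF-kB list summed to 13095, 10950 and 9367 CPM with LNP-CRISPR and 8005, 7947 and 7423 CPM with vehicle. Whether the slopes differ between the libraries was not tested.

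**Figure D5:**
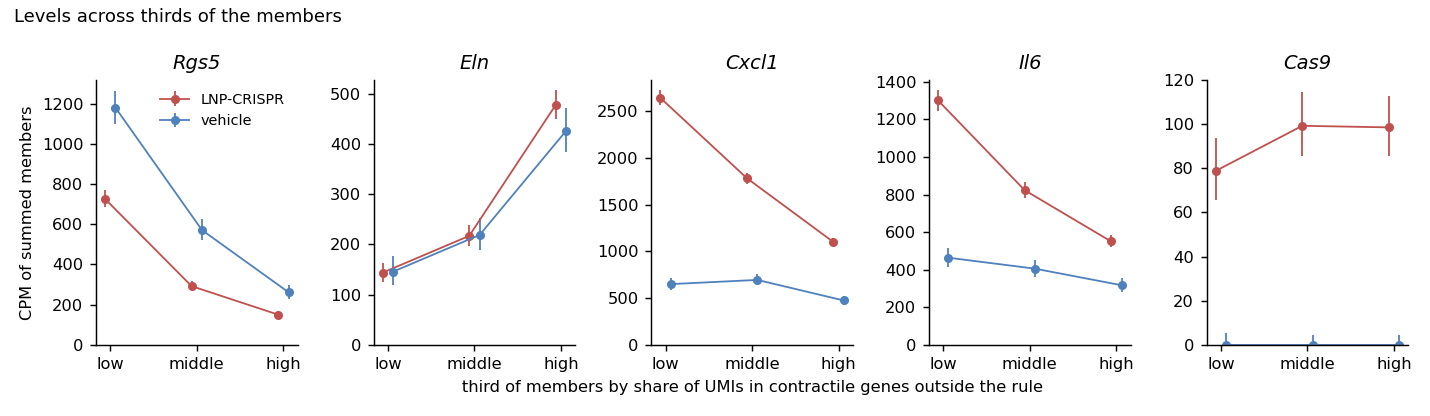
Summed level in CPM of Rgs5, Eln, Cxcl1, Il6 and Cas9 in the low, middle and high bins of smooth muscle members by contractile share, LNP-CRISPR drawn left of vehicle in each bin, bars being exact 95% Poisson intervals. Toward the high bin Rgs5 is lower and Eln higher in both libraries, and Cxcl1 is 2645, 1785 and 1101 CPM with LNP-CRISPR against 650, 695 and 475 CPM with vehicle.

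Cas9 RNA was counted in LNP-CRISPR members and in no vehicle member. It gave 527 UMIs in 144 of 313 members (46.0%, 40.4–51.7), or 93.1 CPM (85.3–101), against 0 UMIs in 143 vehicle members, where a floor of 3 counts is 1.26 CPM. It was uneven, with 0 UMIs in 169 members, 1 to 3 in 112, at least 4 in 32, and 44.0% of all its UMIs in the richest 10 members. After thinning to 5000 UMIs 20.5% (16.1–25.5) of members held it, against 9.06% (6.20–12.7) of glial-marked barcodes of the same library. In CPM the order was the opposite, 93.1 in the members and 139 in the glial-marked barcodes, but a single glial-marked barcode held 245 UMIs, and without it the level there was 85.7 CPM. Thus no order between them is read here. Myogenic barcodes held 238 CPM and all kept LNP-CRISPR kit barcodes 228 CPM. The 24 bulk members held 109 UMIs or 277 CPM, 68 of them in 1 barcode, and 104 CPM without it.

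Members with at least 4 Cas9 UMIs and members with 0 were set side by side as description (median depths of 21624 and 18484 UMIs). The contractile list summed to 0.988 times the level in Cas9-rich over Cas9-free members, and the NF-kB list to 1.11 times (1.08–1.14). Single members weighed on this list, since without the highest member of each set Cxcl1 came to 1.32 in place of 1.65, Cxcl2 to 0.958 in place of 2.34 and Il6 to 0.734 in place of 0.969. Other lists leaned the same way, with satellite cell markers at 1.28 times and glial markers at 1.24 times. Single genes or members weighed on these sums as well. Most satellite marker UMIs of the members were of a single gene, and a single LNP-CRISPR member held 31.0% of the glial marker UMIs. Immediate early genes summed to 0.886 times, interferon genes to 0.895 times and skeletal fibre markers to 0.740 times. Across the contractile bins Cas9 was 78.8, 99.3 and 98.6 CPM with LNP-CRISPR.

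Cycling smooth muscle was rare. At least 5 Mki67 UMIs, a gene of dividing cells, were found in 5 LNP-CRISPR and 1 vehicle members. A single member held 154 of 273 Mki67 UMIs with LNP-CRISPR and 101 of 110 with vehicle. Of 16 measured cell cycle genes 1 was higher (Tyms) and 1 lower (Cenpa).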

How the data were processed

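Single-cell RNA libraries (10x Chromium 3' v3.1, per the labels) were deposited as 1 matrix per library. The deposited values are raw UMI counts per gene and barcode over 32286 features, Cas9 included. Cell Ranger is named as version 7.0.1, beside the build mm10, per the submitters' processing notes, and as 5.0.1 per the file headers. Filters and the member rule are those given with the results. Python 3.11.15 with numpy 2.4.6, scipy 1.17.1 and pandas 2.3.3 summed counts over members, with exact Poisson, Clopper-Pearson and conditional binomial 95% intervals. Genes with at least 50 UMIs over both kit libraries counted as measured, log2 ratios took a pseudocount of 0.5 UMI, and a fold of 1.5 set higher and lower. Scrublet (scanpy 1.11.5) called 32 and 8 doublets in the LNP-CRISPR and vehicle kits, 5 and 3 of them members; doublets were kept. Named genes were the rule genes, the most abundant genes of each list, the 12 highest and 12 lowest ratios without the highest member, and genes of prior interest. The members and lists were chosen with earlier results of these data known. The Rgs5, Cas9 and bulk comparisons and the mark of mixed members were added after the data were seen. Steps were tested on simulated data. Alternatives are given at the end. Some genes are not reported here.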

Additional observations from a re-analysis of the deposited data

Results flagged for a closer look

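Named and list genes past the 1.5-fold margin in kit smooth muscle members, whose counting intervals lay on opposite sides of 1 in the kit and in bulk, were picked out, and the difference between the isolations was not tested. For 2 transcription factor genes the bulk ratio moved little without each gene's highest bulk member in either library. Cebpd had a ratio of 0.608 in the kit and 1.71 in bulk (1.73 without them), and Klf2, a gene that shear stress raises in endothelium, 0.569 and 1.78 (1.86). The other 7 are transcripts of skeletal fibres. Their kit ratios were 0.545 for Acta1, 0.543 for Ckm, 0.575 for Myl1, 0.562 for Mylpf, 0.487 for Pvalb, 0.553 for Tnnc2 and 0.593 for Tnni2. In bulk they were 10.4 for Acta1, 6.86 for Ckm, 14.7 for Myl1, 16.7 for Mylpf, 11.6 for Tnnc2 and 15.0 for Tnni2, and Pvalb had 47 UMIs in LNP-CRISPR members against 0. Without each gene's highest bulk member in either library these came to 0.280 for Acta1, 0.980 for Ckm, 1.22 for Myl1, 0.327 for Mylpf, 0.816 for Tnnc2 and 0 for Tnni2, and Pvalb had 1 UMI left with LNP-CRISPR against 0. No more than 7 UMIs per library remained behind any of these 7 values.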

How the results depend on the processing

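No paired analysis was possible because each group had 1 library. The median of the NF-kB list (0.50) stayed above 0 and its number of higher genes (14) within 1.5 times under 12 settings, though not each gene did, and the Cas9 level moved little under 9. Of 2114 gene ratios 1916 moved by less than their counting interval, 193 moved more and 5 turned direction, namely Cd14 (1.35 at no more than 10% mitochondrial UMIs), Ptgs2 (0.401 with equal weight per member) and Vcam1 (1.15 with equal weight, 1.38 without the highest member, 1.39 without doublets). Of 295 list medians 281 stayed, 13 moved and 1 turned, the contractile list at 0.0019 under median-ratio scaling; at no more than 10% mitochondrial UMIs it was -0.0034. The number of lower contractile genes was 0 there and with genes of at least 200 UMIs, and 2 with equal weight. Genes higher numbered 105 with at least 200 UMIs and 700 with at least 20, and genes lower 103 and 934, or 303 after thinning to 5000 UMIs. The median of all genes was -0.0120 without the highest member, -0.0341 after thinning, -0.0672 without doublets, 0 under median-ratio scaling and -0.0299 with at least 200 UMIs. The ratio of member shares was 2.14 at no more than 10% mitochondrial UMIs and 1.48 to 1.65 otherwise. Depth limits genes of few UMIs, such as Lif, and the bulk members.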
